A study of Mus musculus with 4 samples.

Results

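*Mesp1* and *Eomes* positive mesoderm cells were picked from the day 4 gastruloids by their own counts. A cell of the day 4 library was a member if it held at least 2000 unique molecular identifiers (UMIs, 1 per captured RNA molecule), a mitochondrial share under 20%, at least 3 UMIs of *Mesp1*, at least 2 UMIs of *Eomes*, and none of *Sox17* or *Foxa2*. The rule found 1079 members among 7202 kept day 4 cells, or 14.98% (14.2 to 15.8%, exact Clopper-Pearson interval), and among 31330 barcodes in the whole series. Because the rule read the counts, the levels of these 4 genes in the members are a description of the choice and not a result.

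Gastruloids are aggregates of embryonic stem cells that form germ layers and a body axis in culture. These came from the wild type mouse line Zx1, received a Wnt agonist pulse from day 2 to day 3, and were taken on days 4, 5, 6 and 11 for Chromium 3′ single-cell libraries. Day 4 gastruloids had not yet been cultured with the cardiogenic factors bFGF, VEGF and ascorbic acid, which are added from that day. Each day is 1 library of pooled gastruloids from 1 line, so no difference below has a replicate check, and all intervals cover counting error only, at 95%.

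In the mouse embryo, *Nodal* and Wnt signals switch on the T-box factor *Eomes* in epiblast cells that enter the primitive streak. *Eomes* in turn is needed both for definitive endoderm and for the earliest mesoderm, where it acts upstream of the basic helix-loop-helix factor *Mesp1*. *Mesp1* marks the nascent mesoderm that leaves the streak and gives rise to most of the heart, and its cells later take on cardiac, endothelial or head muscle fates.

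On the mm10 assembly (GENCODE vM21), *Mesp1* (ENSMUSG00000030544) lies at chr7:79792241-79793788 on the minus strand and its paralog *Mesp2* at chr7:79810727-79813439 on the plus strand, 16938 bases away. *Eomes* (ENSMUSG00000032446) lies at chr9:118478212-118486132, *Mixl1* at chr1:180693043-180697034, *Myl7* at chr11:5896637-5898782, *Lhx1* at chr11:84518284-84525535 and *Kdr* at chr5:75932827-75978458.

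The 250 bases before the RefSeq start (GRCm38.p6) are shown for 3 genes on which the description turns: the rule gene *Eomes*, the atrial myosin light chain *Myl7* and the *Nodal* co-receptor *Tdgf1*. Capitals mark matches to any of 6 motifs searched on both strands.
Eomes, chr9:118477939-118478188, plus strand: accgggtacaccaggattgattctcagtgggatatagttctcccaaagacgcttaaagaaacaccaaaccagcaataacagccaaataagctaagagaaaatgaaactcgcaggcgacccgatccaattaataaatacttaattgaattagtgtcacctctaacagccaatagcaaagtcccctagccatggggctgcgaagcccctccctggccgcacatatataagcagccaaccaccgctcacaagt
Myl7, chr11:5898783-5899032, minus strand: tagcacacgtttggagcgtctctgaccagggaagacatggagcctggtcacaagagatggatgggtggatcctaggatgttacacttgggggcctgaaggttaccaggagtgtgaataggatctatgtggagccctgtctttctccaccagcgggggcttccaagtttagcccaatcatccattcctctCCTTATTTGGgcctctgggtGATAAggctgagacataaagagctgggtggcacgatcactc
Tdgf1, chr9:110946159-110946408, minus strand: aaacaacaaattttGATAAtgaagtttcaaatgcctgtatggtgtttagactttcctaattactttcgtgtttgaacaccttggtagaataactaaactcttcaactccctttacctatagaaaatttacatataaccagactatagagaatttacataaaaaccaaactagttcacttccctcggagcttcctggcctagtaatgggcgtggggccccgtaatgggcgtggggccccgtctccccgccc
The first search used 4 motifs in the promoters of 12 genes, of which 11 were in the table. The T-box site was taken as GGTGTGA. For GATA factors the letters searched were AGATAA. The site shared by OTX and GSC factors was written TAATCC. The site of FOXH1, a partner of *Nodal* effectors, was AATCCACA. This search matched 2 of the 11, *Klhl6* and *Otx2*, and none of the 3 printed here. A shorter GATA core (GATAA, which lies within the longer GATA site) and the CArG box were added only after these sequences had been read, so the capitals in *Myl7* and *Tdgf1* come from motifs chosen with the letters in view. The added core matched 4 of the 11 and the CArG box 2. These were *Myl7* and *Mesp1*, whose window lies mostly inside the *Mesp1* gene as placed above, with the match inside it. Of all 27025 genes in the promoter table, 3.84% held the T-box site, 11.4% the longer GATA site, 7.21% the OTX and GSC site, 0.862% the FOXH1 site, 25.5% the GATA core and 1.62% the CArG box. Nothing about the binding of a factor follows from a match or its absence.

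The members were deeper than the cells around them, with a median of 30863 UMIs against 24433 in the 6123 other day 4 cells. Their median mitochondrial share was 1.96% against 2.39%, and their ribosomal protein share 34.2% against 34.3%. The day 4 library shared 5 to 18 barcodes with each other library, and 2, 1 and 1 of the members' barcodes also occurred at days 5, 6 and 11. A simulated-doublet score, set to mark 8% of day 4 cells, marked 15.01% of members and 6.76% of other cells. With the marked cells removed, 917 members remained, and 57 of 57 genes higher and 86 of 94 lower against other cells were called again. The part of depth in the differences below was not tested.

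Besides all other day 4 cells, 3 sets served for comparison. The closest were 1597 cells with at least 3 UMIs of *Mesp1* and none of *Eomes*, *Sox17* or *Foxa2*, called *Mesp1*-high *Eomes*-negative cells (median 24659 UMIs). The others were 300 *T*-positive cells, with at least 3 UMIs of *T* and none of *Mesp1*, *Sox17* or *Foxa2* (22922 UMIs), and 586 endoderm cells with at least 3 UMIs of *Sox17* plus *Foxa2* (33443 UMIs). The unit of level, CPM, is the number of UMIs of a gene in every 1000000 UMIs of a set, all its cells added together. A gene was called higher at a CPM ratio of 2 or more and lower at 0.5 or less, where the mean CPM of both sets was at least 10. A gene under 10 CPM in either set can pass this limit only through the other set, which favours a ratio far from 1.

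Within the members, *Mesp1* ran from 3 to 76 UMIs per cell with a median of 12, and *Eomes* from 2 to 51 with a median of 6. Summed, *Mesp1* stood at 397 CPM against 115 CPM in other cells, and *Eomes* at 213 CPM against 21.9 CPM. The rule's limits cut through a continuum. The 178 members with exactly 2 *Eomes* UMIs held 27.7 CPM of *Mixl1* and 81.7 CPM of *Myl7*, and the 310 cells just outside, with 1 *Eomes* UMI, held 16.7 and 66.6 CPM. The 69 members with exactly 3 *Mesp1* UMIs held 80.6 CPM of *Mixl1*, against 64.5 CPM in the 81 cells with 2. Of 1167 cells that met both lower limits, 88 (7.54%) held *Sox17* or *Foxa2* and were left out.

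The other markers given with the set were all higher in the members than in the other cells. Like the set, these markers were chosen with earlier results of these data known. Their being higher therefore describes that choice and is not an independent result. *Mixl1*, a homeobox gene of the streak and nascent mesoderm, ran from 0 to 25 UMIs per member with a median of 1, and stood at 65.8 CPM against 11.3 CPM, a ratio of 5.82 (5.50 to 6.17). *Myl7* ran from 0 to 47 UMIs with a median of 2, at 122 CPM against 34.3 CPM, a ratio of 3.56 (3.43 to 3.70). The VEGF receptor gene *Kdr* ran from 0 to 39 UMIs with a median of 4, at 126 CPM against 37.8 CPM, a ratio of 3.32 (3.20 to 3.44). *Lhx1*, a LIM homeobox gene of early mesoderm, ran from 0 to 76 UMIs with a median of 4, at 171 CPM against 67.0 CPM, a ratio of 2.55 (2.48 to 2.63). In every one of these genes single members and single other cells overlapped, since other cells reached 37, 50, 28 and 77 UMIs. *Mesp2* was sparse, at 5.07 CPM against 2.24 CPM, and was too low to be called.

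Shares of cells with a UMI, after thinning every cell to 10000 UMIs, gave the same order. *Kdr* was found in 65.2% of members and 21.9% of other cells (88.2% of members before thinning), against 4.48% in endoderm cells and 2.01% in *T*-positive cells. *Myl7* was found in 49.6% of members (71.1% unthinned) and 17.6% of other cells, with 11.0% in endoderm cells. *Mixl1* was found in 37.9% (61.3% unthinned) and 7.40%, with 4.24% in *Mesp1*-high *Eomes*-negative cells. Thinning left out 3 members and 126 other cells that were too shallow.

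**Figure D1:**
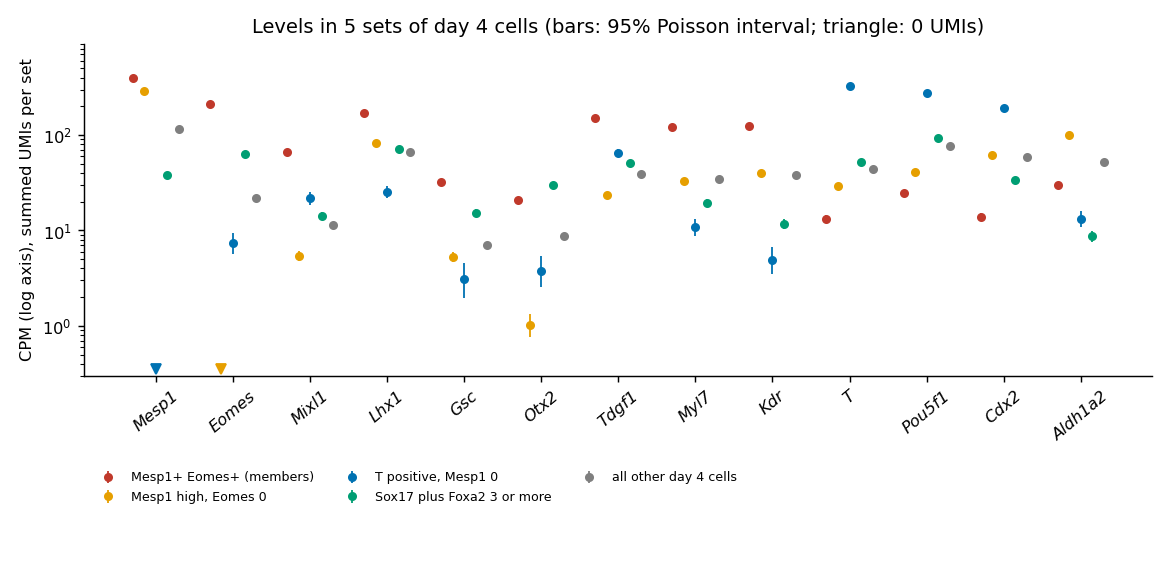
Level of 13 genes in the 5 sets of day 4 cells, in CPM on a log axis; bars are exact 95% Poisson intervals and triangles stand for 0 UMIs. Members (red) were highest for *Mixl1* at 65.8 CPM, *Lhx1* at 171 CPM, *Myl7* at 122 CPM and *Kdr* at 126 CPM, and lowest for *T* at 13.3 CPM.

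Against all other day 4 cells, 57 of 7242 genes were called higher in the members (0.787%) and 94 lower (1.3%). After *Eomes* and *Mixl1* the highest ratios belonged to *Klhl6* (43.2 against 8.54 CPM, 5.06), *Zcchc12* (4.81), *Gsc* (32.0 against 7.10 CPM, 4.51), *Col23a1* (3.96), *Tdgf1* (152 against 38.8 CPM, 3.92) and *Cyp26a1* (111 against 29.3 CPM, 3.78). *Gsc* encodes the organizer homeobox factor Goosecoid, and *Cyp26a1* an enzyme that breaks down retinoic acid. Below *Myl7*, *Mesp1* and *Kdr* came *Vstm2b*, *Pcsk5*, *Kif26a*, *Pmepa1*, *St6galnac4*, *Lmo1*, *Wnt3*, *Cdh4* and *Fzd7*, between 3.26 and 2.91. *Wnt3*, the ligand that starts the streak, stood at 37.2 against 12.5 CPM, and *Fzd7*, a Wnt receptor gene, at 47.6 against 16.4 CPM.

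The lowest ratios were those of epithelial, endoderm and pluripotency genes. *Sox17* was at 0 by the rule, followed by *Spink1* (0.866 against 76.4 CPM), the claudin genes *Cldn6* (0.841 against 20.4 CPM) and *Cldn7* (1.14 against 23.8 CPM), *Apela*, *Pcbd1*, *Utf1*, *Trh*, *Klf2* and *Hoxaas3*, an antisense transcript of the HoxA cluster whose reads may not be separable from its neighbours. The other cells include the 586 endoderm cells that the rule kept out of the members. Without them, an alternative chosen after the data were seen, 58 genes were higher and 70 lower, and 65 of those 70 were among the 94.

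The comparison with *Mesp1*-high *Eomes*-negative cells sets mesoderm against mesoderm. Of 7189 genes, 64 were higher in the members (0.89%) and 45 lower (0.626%), *Eomes* itself among the 64 by construction. *Otx2*, a homeobox gene of anterior epiblast and head, gave the highest ratio after *Eomes*, with 849 UMIs in members, 21.0 CPM against 1.02 CPM, or 20.6 (15.5 to 28.0). With 50 UMIs in the comparison cells, it passed the limit on mean CPM only through the members, which favours a high ratio. It ran from 0 to 18 UMIs per member with a median of 0, and was found in 16.8% of thinned members (33.3% unthinned) and 0.70% of thinned *Mesp1*-high *Eomes*-negative cells. *Mixl1* followed at 12.1 (10.6 to 13.7), *Pmepa1* at 6.91, *Tdgf1* at 6.51 (6.11 to 6.94), *Gsc* at 6.07 (5.31 to 6.96), *Zcchc12* at 5.47, *Klhl6* at 4.69, *Vstm2b* at 4.12 and *Itga6* at 4.00. All of these except *Tdgf1* and *Vstm2b* were under 10 CPM in the comparison cells and likewise passed the limit only through the members. *Myl7* stood at 122 against 33.2 CPM, 3.69 (3.48 to 3.90), and *Kdr* at 126 against 39.6 CPM, 3.17 (3.01 to 3.34). *Mesp1*, present in both sets by the rule, was at 397 against 289 CPM, and *Mesp2* did not separate them, at 5.07 against 5.25 CPM.

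Among the genes lower in the members than in *Mesp1*-high *Eomes*-negative cells, *Cdx2*, a posterior homeobox gene, stood at 13.9 against 62.0 CPM, a ratio of 0.224 (0.204 to 0.245), and it was found in 7.43% of thinned members and 36.9% of thinned *Mesp1*-high *Eomes*-negative cells. *Aldh1a2*, the enzyme that makes retinoic acid in mesoderm, was at 30.2 against 99.3 CPM, 0.304 (0.285 to 0.323). Other genes among the lowest were *Rnf213*, *Hoxd9*, *Defa30*, *Osr1* (7.03 against 27.8 CPM), *Hotairm1*, *Zfp503*, *Prrx1* (9.67 against 34.8 CPM) and *Hoxaas3*. *Defa30* belongs to a multigene family, and *Hotairm1* and *Hoxaas3* overlap Hox genes, so their counts are uncertain.

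**Figure D2:**
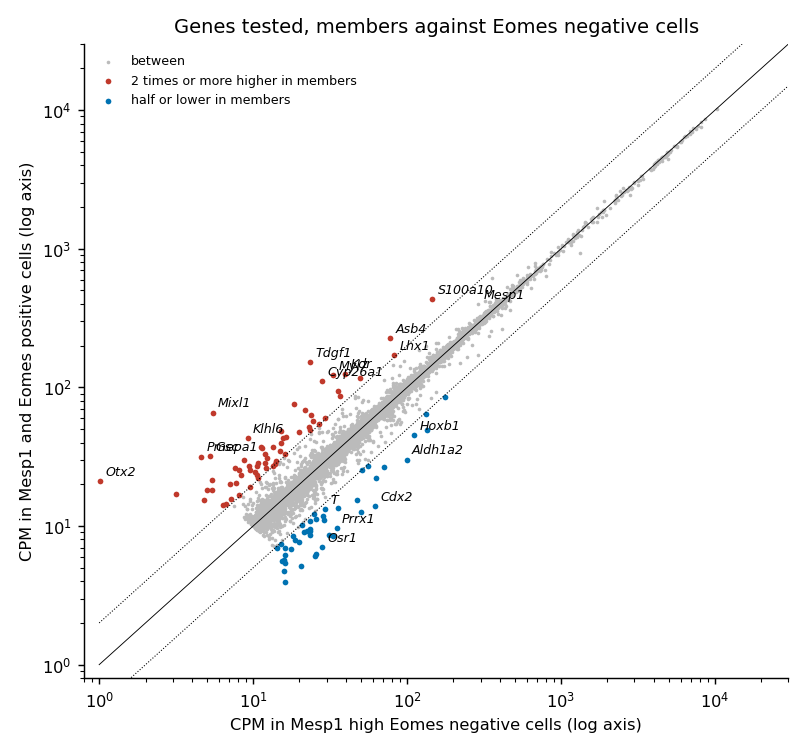
CPM of each tested gene in members (vertical, log axis) against *Mesp1*-high *Eomes*-negative cells (horizontal, log axis); genes at 0 in the horizontal set are not drawn, and dotted lines mark ratios of 2 and 0.5. *Otx2* lies farthest above the diagonal at 21.0 against 1.02 CPM, and *Cdx2* farthest below at 13.9 against 62.0 CPM.

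Against *T*-positive cells, 216 of 7273 genes were higher in the members (2.97%) and 323 lower (4.44%). After *Mesp1*, which the rule fixed, the highest ratios were those of the cardiac T-box gene *Tbx20* (21.0 against 0.490 CPM), the BMP ligand gene *Bmp5* (20.4 against 0.490 CPM) and the chemokine receptor gene *Cxcr4* (25.5 against 0.613 CPM). These 3 rest on 4, 4 and 5 UMIs in the *T*-positive cells and passed the limit on mean CPM only through the members. Their ratio intervals overlap, at 16.6 to 157, 16.2 to 153 and 17.7 to 128, so their order is not resolved. *Capn6*, *Hand2os1* (antisense to *Hand2* and so uncertain), *Kdr* (25.6), *Bmp2* (24.8) and *Klhl6* followed *Eomes*. *Eomes* and these genes were also under 10 CPM in the *T*-positive cells and passed the limit only through the members. With endoderm cells, 187 of 7277 genes were higher (2.57%) and 322 lower (4.42%). *Kdr* and *Hand2* were among those higher, at 126 against 11.7 CPM and 73.8 against 10.1 CPM.

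Streak and nascent mesoderm factors were the list with most members higher. Of 11 tested genes, 7 were higher and 1 lower against other cells, but *Eomes* and *Mesp1* of the rule and the given markers *Mixl1* and *Lhx1* are among the 7. The median ratio, 2.55 beside 1.02 over all tested genes, counts these genes too and is that of *Lhx1* itself. The others of the 7 were *Gsc*, *Wnt3* and *Snai1*, a repressor of epithelial genes (65.7 against 28.1 CPM). *Evx1* (1.91), *Sp5* (1.69) and *Fgf8* (0.629) were between the limits. *T*, the streak gene brachyury, was the 1 lower gene, at 13.3 against 44.3 CPM, 0.299 (0.274 to 0.327). It was found in 20.02% of members, in 8.46% after thinning, and in 17.4% of thinned other cells. Against *Mesp1*-high *Eomes*-negative cells 7 of 11 were again higher, with *Evx1* (29.4 against 14.01 CPM) and the Wnt target *Sp5* (43.8 against 16.4 CPM) called in place of *Mesp1* (1.38) and *Snai1* (1.74). *Eomes*, absent there by construction, and the given markers *Mixl1* and *Lhx1* are among these 7.

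Most tested genes of the signalling lists were between the limits. Over all tested genes, 0.787% were higher and 1.3% lower against other cells. Against *Mesp1*-high *Eomes*-negative cells these shares were 0.89% and 0.626%. In the *Nodal*, WNT, BMP and FGF lists the share higher against other cells was above that of all genes, in lists chosen with earlier results known. Of 8 tested *Nodal* pathway genes only *Tdgf1* was higher and none lower; *Nodal* itself was at 4.13 against 9.96 CPM, too low to be called. Against *Mesp1*-high *Eomes*-negative cells *Lefty2*, a *Nodal* inhibitor gene, was also higher at 28.7 against 10.8 CPM, with reads that its near copy *Lefty1* may share. Of 15 WNT pathway genes *Wnt3* and *Fzd7* were higher and *Fzd10* lower (5.64 against 17.9 CPM). Against *Mesp1*-high *Eomes*-negative cells *Sp5* and the inhibitor gene *Dkk1* (49.1 against 23.3 CPM) joined them, with *Rspo3* lower at 64.4 against 132 CPM. Among 16 BMP pathway genes, *Bmp2* (39.5 against 13.6 CPM) and the BMP effector *Smad1* (118 against 56.1 CPM) were higher, while the target *Id2* was lower, 49.3 against 128 CPM. Of 13 FGF pathway genes *Fgf10* was higher (46.2 against 20.2 CPM) and the feedback phosphatase gene *Dusp4* lower (8.91 against 23.2 CPM). None of 8 tested Notch pathway genes was called.

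All 6 tested epithelial genes were lower than in other cells, with a median ratio of 0.215. *Epcam*, an epithelial adhesion gene, stood at 13.8 against 74.5 CPM, and the keratin gene *Krt18* at 47.0 against 191 CPM. Against *Mesp1*-high *Eomes*-negative cells none of the 3 tested was called, and *Epcam* was at 13.8 CPM in both. Of 13 mesenchymal genes *Snai1* and the matrix gene *Fn1* (615 against 306 CPM) were higher, and *Snai2*, *Prrx1* and *Prrx2* lower. Of 12 migration and guidance genes *Cxcr4* (25.5 against 10.1 CPM) and *Pcdh7* (57.4 against 23.99 CPM) were higher and *Apela* lower.

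Of 10 tested cardiac factors only *Gata4* was higher than in other cells, at 51.3 against 24.9 CPM, and none was called against *Mesp1*-high *Eomes*-negative cells. *Hand1*, a mesoderm factor used in heart and extraembryonic tissue, stood at 267 against 279 CPM there. Against *T*-positive cells 8 of 9 tested cardiac factors were higher, and against endoderm cells 5 of 8. Over all tested genes, 2.97% and 2.57% were higher in these 2 comparisons. Of 16 sarcomere genes only *Myl7* and *Tpm1* were abundant enough to be tested, and *Tpm1* was at 265 against 341 CPM in other cells. *Kdr* was the only 1 of 5 tested haemato-endothelial genes that was higher. The vessel gene *Flt1* was lower at 10.3 against 22.2 CPM, and the other lower gene was *Sox17*, which the rule set to 0. The endothelial genes *Cdh5*, *Tek* and *Icam2* also had no UMI in the members.

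Of 11 tested pluripotency genes 8 were lower than in other cells, with *Pou5f1* at 25.0 against 76.0 CPM and *Sox2* at 5.54 against 28.4 CPM, and only *Otx2* was higher. Against *Mesp1*-high *Eomes*-negative cells none of 5 was lower, and *Otx2* and *Klf4* (16.7 against 8.09 CPM) were higher. *Otx2* was not particular to the members, since its ratio to endoderm cells was 0.709, between the limits. All 4 tested endoderm genes were lower than in other cells, as the rule favours. Among Hox genes, *Hoxb4* (8.63 against 22.5 CPM) and *Hoxd9* (3.96 against 16.3 CPM) were lower than in other cells, and *Hoxb1* joined them against *Mesp1*-high *Eomes*-negative cells at 45.4 against 111 CPM. Summed over the list, the members held 170 CPM of Hox genes and the *Mesp1*-high *Eomes*-negative cells 386 CPM. The 14 S phase genes and the 15 genes of G2 and M phase were all between the limits in both comparisons, with medians from 0.982 to 1.06. The 8 tested immediate early and heat shock genes were all between the limits too, with medians of 0.842 and 0.892.

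**Figure D3:**
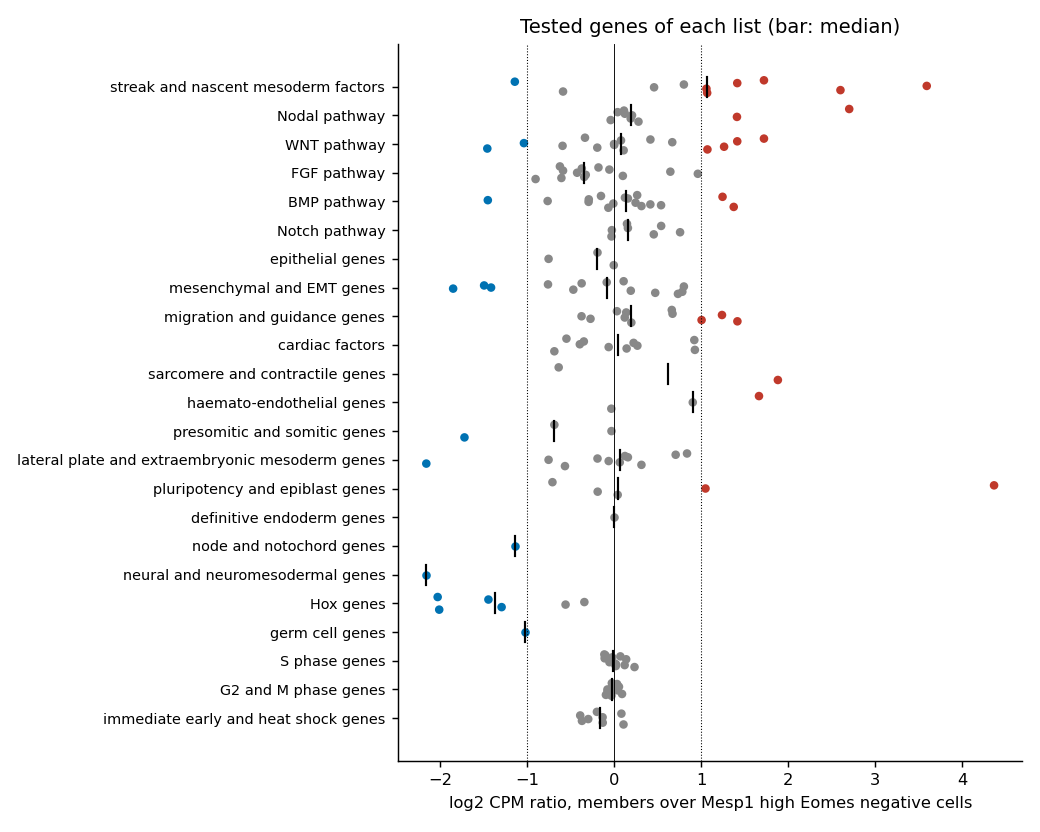
Each point is 1 tested gene of a list, placed by its log2 CPM ratio of members over *Mesp1*-high *Eomes*-negative cells; bars are list medians and dotted lines mark ratios of 2 and 0.5. Streak and nascent mesoderm factors lie mostly to the right, Hox genes to the left, and both cell cycle lists close to 0.

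Levels followed *Eomes* within the *Mesp1*-positive cells. From the 1597 cells without *Eomes* to the 127 cells with 16 or more UMIs, *Mixl1* went from 5.46 to 110 CPM, *Otx2* from 1.02 to 35.7 CPM and *Tdgf1* from 23.4 to 210 CPM. Over the same bands *Cdx2* went from 62.0 to 4.22 CPM, *Aldh1a2* from 99.3 to 16.1 CPM and *T* from 29.2 to 7.35 CPM, while *Hand1* stayed between 257 and 289 CPM. Median depth went from 24659 to 47065 UMIs over these bands. The bands were also drawn on cells thinned to 10000 UMIs, which was added after the first bands had been seen. The direction from the first to the last band was then the same for the genes given here other than *Hand1*. *Mixl1* went from 10.3 CPM in 1014 cells without *Eomes* to 114 CPM in 181 cells with 4 or more, *Myl7* from 38.9 to 160 CPM, and *Cdx2* from 62.7 to 2.21 CPM. *Hand1* went from 245 to 250 CPM on the thinned cells, and from 279 to 260 CPM in the first bands.

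**Figure D4:**
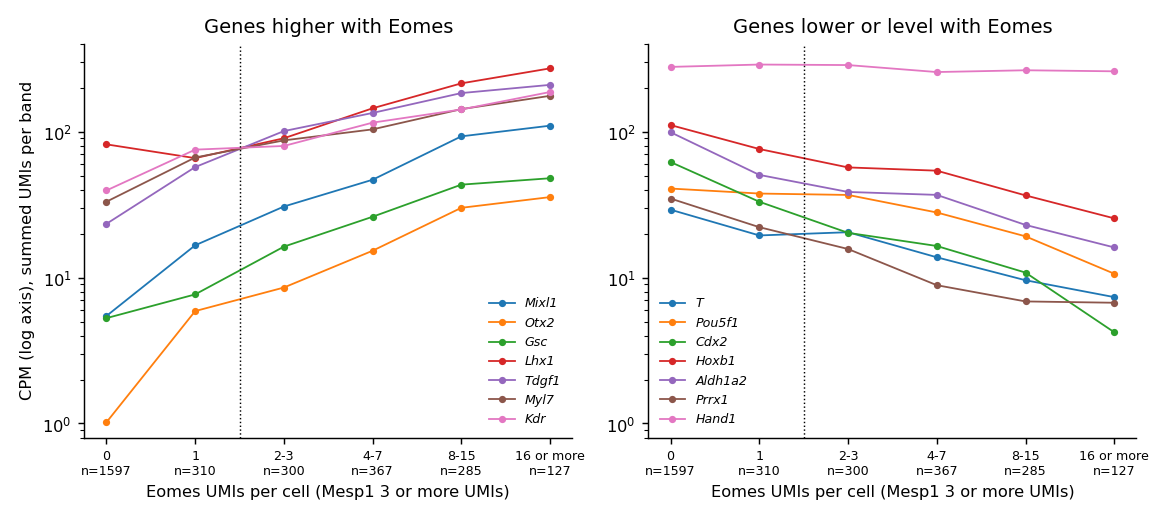
CPM (log axis) in cells with at least 3 *Mesp1* UMIs, by *Eomes* UMIs per cell; the dotted line marks the limit of the rule, and members lie to its right. *Mixl1* reached 110 CPM and *Otx2* 35.7 CPM in the highest band, where *Cdx2* was at 4.22 CPM.

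The same was done by *Mesp1* in cells with at least 2 *Eomes* UMIs and neither endoderm gene. From 117 cells without *Mesp1* to 194 cells with 24 or more UMIs, *Lhx1* went from 66.4 to 229.6 CPM, *Tdgf1* from 80.7 to 208 CPM and *Cyp26a1* from 44.05 to 139.7 CPM. *T* went from 36.9 to 10.9 CPM. *Mixl1* did not follow *Mesp1* upward, with 82.5 CPM at one end and 62.8 CPM at the other, and *Hand1* stood at 273 and 268 CPM. Median depth went from 23703 to 41063 UMIs.

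Among members some pairs of genes were unevenly shared and others were not. In 1076 thinned members *Kdr* was found in 74.0% (70.0 to 77.6%) of those with *Myl7* and in 56.6% (52.4 to 60.9%) of those without. *T* was found in 4.68% (3.05 to 6.83%) of members with *Myl7* and 12.2% (9.54 to 15.2%) of members without. *Myl7* was found in 30.3% of members with *Pou5f1* and 53.6% of those without. The streak gene *Mixl1* went with *Kdr*, found in 75.0% of members with *Mixl1* and 59.3% of those without. *T* did not separate by *Mixl1*, at 8.09% with it and 8.68% without. With and without *Otx2*, *Kdr* was found in 65.7% and 65.1%. Rank correlations of these thinned counts were weak, from -0.16 to 0.15 over the 15 pairs examined, and are given only as a description of cells that share 1 library.

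The members stood together in genes that had not chosen them. With the 4 rule genes left out, 60.2% of the 20 nearest neighbours of a member were members, against 8.39% for other cells and 14.98% of all cells, 12.5% were *Mesp1*-high *Eomes*-negative cells, which form 22.2% of all cells, and 0.412% were *T*-positive cells, which form 4.17%. Clustering gave 15 clusters, and members occurred in 14 of them. Cluster 2, led by *Eomes*, *Mixl1*, *Tdgf1*, *Vstm2b* and *Myl7*, held 465 members among 702 cells (66.2%) and 43.1% of all members. Clusters 3 and 5, led by *Asb4* and *Mesp1*, held 180 and 162 members. In cluster 2, members had 289 CPM of *Lhx1* and the other cells of the cluster 129 CPM, and *Otx2* stood at 37.3 against 17.9 CPM. The other given markers were closer there, with *Mixl1* at 109 against 88.5 CPM, *Myl7* at 174 against 130 CPM and *Kdr* at 164 against 134 CPM. In cluster 3 members held 3.64 CPM of *Otx2*, and in cluster 8, led by *Rspo3*, 79.2 CPM of *T*. The label of the set therefore covers cells of several clusters. Cluster 13 held 51 members among 154 cells with a median of 62288 UMIs, above the other clusters in depth.

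**Figure D5:**
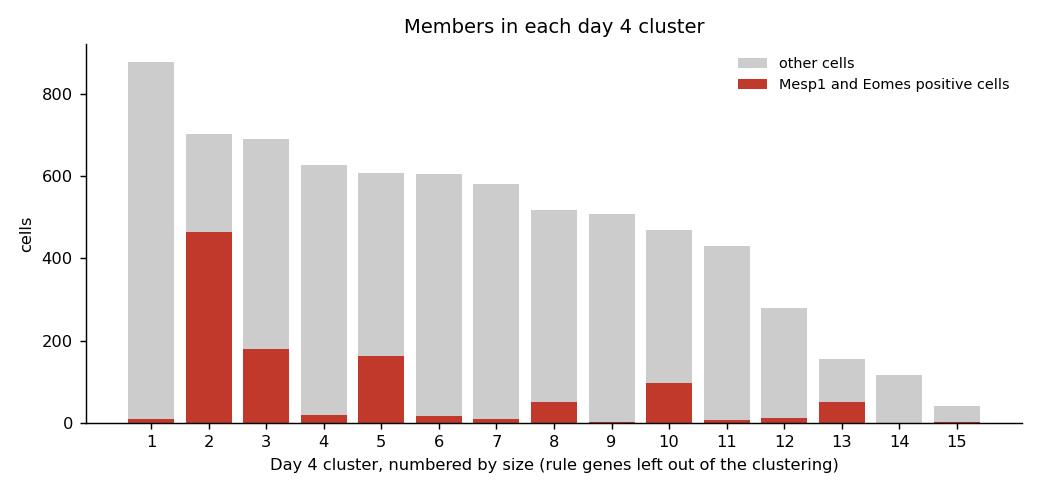
Cells in each of the 15 day 4 clusters, numbered by size, with members in red and other cells in grey. Cluster 2 held 465 members among 702 cells, and cluster 14 held none.

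The rule was met almost only on day 4. On day 5 it was met by 24 of 7408 cells, or 0.324% (0.208 to 0.482%), on day 6 by 0 of 5850 cells, which allows a share of up to 0.0513%, and on day 11 by 0 of 8730 cells, which allows up to 0.0344%. The rule counts UMIs, and the median depth was 25335 UMIs on day 4 but 12082 on day 11. After thinning, 6.38% of day 4 cells and 0.0285% of day 5 cells met it. Of the thinned cells, 0 of 5643 met it on day 6 and 0 of 5689 on day 11. These allow shares of up to 0.0532% and 0.0527%. Over all kept cells *Mesp1* went from 165 CPM on day 4 to 12.3 CPM on day 5 and *Eomes* from 56.0 to 3.68 CPM.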

How the data were processed

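The authors deposited, for each of 4 libraries (days 4, 5, 6 and 11), a matrix of raw UMI counts per gene and cell, not normalized. The submitters' processing notes name Cell Ranger 3.1.0 and mm10. The header of the day 4 matrix gives the same version, that of the day 11 matrix 6.0.1. The day 4 library held 227398362 UMIs in 7324 barcodes, of which 7202 were kept.

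From these deposited counts CPM, percent and ratio values were computed here (Python 3.11.15, numpy 2.4.6, scipy 1.17.1). CPM have exact Poisson intervals, ratios exact conditional binomial intervals and shares Clopper-Pearson intervals, at 95%. Genes were compared where the mean CPM of both sets was at least 10, with limits of 2 and 0.5 on the ratio. A count of 0 allows 3 counts. Thinning drew 10000 UMIs per cell without replacement. Clusters came from scanpy 1.11.5 with 2000 variable genes, 30 components, 20 neighbours and resolution 1. Doublets were left in. The ratio calls and thinning were tested on simulated data. With 1 library per day no test between samples could be made.

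The genes named are the rule genes and given markers, of each list up to 4 genes at either end and every called gene where 6 or fewer, the 20 highest and 10 lowest against all other cells, the 10 highest and 10 lowest against Mesp1-high Eomes-negative cells, and the 10 highest against T-positive cells. Genes named beside clusters, bands, co-detection and endoderm cells were picked with their values seen. The members and lists were chosen with earlier results of these data known. Promoter motifs were searched in 2 rounds, and the second set of 2 was chosen after the promoter sequences had been read. The values of 1 gene that the naming rule selects are not reported here.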

Additional observations from a re-analysis of the deposited data

How the results depend on the processing

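No paired analysis was possible because each day is 1 library with replicate number 1. No marker ratio changed direction, but the markers were given with the set and chosen with earlier results of these data known. For the counts and shares no reversal was defined, so none could be found. Across 14 alternatives the ratio to other cells ran from 5.30 to 6.32 for Mixl1, 3.34 to 3.97 for Myl7, 2.04 to 3.48 for Lhx1 and 2.99 to 3.55 for Kdr. The alternatives that only change the limit on CPM leave these ratios as they were by construction. The number of members was 451 with the rule read on thinned cells and 1639 with 1 UMI of each gene. The counts of genes followed the limit on CPM. At a mean of 5 CPM, 165 genes were lower than in other cells, 81 than in Mesp1-high Eomes-negative cells and 563 than in T-positive cells. At 20 CPM, 35 were lower than in other cells, 37 higher and 17 lower against Mesp1-high Eomes-negative cells, and 121 higher and 166 lower against T-positive cells. With no limit, 1089 were higher and 2170 lower against other cells, and 889 higher and 1287 lower against Mesp1-high Eomes-negative cells. Against other cells, 8970 genes were compared at 5 CPM, 5140 at 20 CPM and 18521 with no limit, beside 7242 in the counts reported. Against Mesp1-high Eomes-negative cells these were 8890, 5128 and 17761. The counts called did not change in proportion to the genes compared, and the cause was not tested. After thinning, the rule was met by 6.38% of cells on day 4 and 0.0285% on day 5. The cluster with most members held 54.9% of them at resolution 0.5, 31.5% at resolution 1.5 and 51.3% with 50 neighbours; the cause was not tested. Of the alternatives chosen after the data were seen, cells of 15000 to 45000 UMIs gave 69 genes higher and 95 lower against other cells, 56 and 80 of them shared with the counts reported. Sparse genes such as Mesp2 and Nodal stood under the limit on mean CPM and could not be called against other cells.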
